A study of Mus musculus with 310 samples.

Results

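Adh1, Adh7, Aldh3a1 and Stra6 are 4 genes of retinoid and aldehyde metabolism, taken by name from the deposited table of 14068 genes, and all 4 were present in it. They were followed in 310 single tdTomato-positive keratinocytes sorted from mouse tail epidermis, in which the label marks Lrig1-expressing stem cells and their progeny. Single cells were processed with a modified Smart-seq2 protocol, which reads complementary DNA along the whole transcript and carries no molecular identifiers. The design text sets repaired skin against skin of age-matched controls. All mice carried Lrig1-EGFP-ires-CreERT2 together with Rosa26-fl/STOP/fl-tdTomato on a mixed CBA and C57BL/6 background, all received hydroxytamoxifen once on the tail skin, and all cells carry the label of 38 weeks. The Cre is driven by Lrig1, so cells outside that lineage were not sampled. The group 38w holds the replicates RepI, with 70 cells on plates C114 and C118, and RepL, with 75 cells on plate C119. The group 38wUW holds RepM, with 82 cells on plate C128, and RepN, with 83 cells on plate C129. The labels do not spell out UW or say which group was wounded, so differences are given as 38w against 38wUW. They also do not say whether a replicate is 1 animal, and p-values therefore measure only the spread between these replicates, which may be technical.

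Retinol reaches cells bound to a carrier protein and can enter through STRA6, a membrane receptor for that carrier. Inside the cell, alcohol dehydrogenases such as ADH1 and ADH7 and short-chain dehydrogenases can oxidise retinol to retinal, and aldehyde dehydrogenases of the ALDH1A family turn retinal into retinoic acid, which acts through nuclear receptors and is known for its effects on keratinocyte differentiation and on sebaceous glands. ALDH3A1 is an aldehyde dehydrogenase best known from the cornea, where it oxidises reactive aldehydes such as those from lipid peroxidation.

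In the GENCODE M21 annotation of GRCm38, Adh7 (ENSMUSG00000055301.8) lies on the plus strand at chr3:138217760-138233382 and Adh1 (ENSMUSG00000074207.10) on the same strand at chr3:138260991-138290698, with 27608 bases and no annotated gene between them. Aldh3a1 (ENSMUSG00000019102.10) lies at chr11:61207537-61218421 and Stra6 (ENSMUSG00000032327.14) at chr9:58063788-58153996, also on the plus strand. Because Adh7 and Adh1 are neighbours that had their highest shares of cells in different marker classes, a stretch of sequence before each is shown. Both stretches come from RefSeq (GRCm38.p6), which gave promoter windows for 3 of the 4 genes, and each runs on the plus strand, chr3:138217523-138217759 for Adh7 and chr3:138277335-138277493 for Adh1, up to the base before the exon that overlaps its window. The Adh1 stretch lies inside the annotated gene, because a noncoding transcript of Adh1 starts further upstream. Capitals mark matches to a CCAAT box (CCAAT, or ATTGG on the other strand) or a TATA box (TATAAA, or TTTATA on the other strand).
Adh7: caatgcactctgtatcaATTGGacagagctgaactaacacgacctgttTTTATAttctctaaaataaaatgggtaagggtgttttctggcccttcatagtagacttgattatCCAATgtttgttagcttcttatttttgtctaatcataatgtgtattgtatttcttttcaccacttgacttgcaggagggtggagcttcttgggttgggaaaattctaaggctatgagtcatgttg
Adh1: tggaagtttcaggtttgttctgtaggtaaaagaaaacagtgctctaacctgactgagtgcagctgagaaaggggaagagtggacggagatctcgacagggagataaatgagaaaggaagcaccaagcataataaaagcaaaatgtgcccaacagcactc
The Adh7 stretch held 2 CCAAT-box matches, starting at its bases 18 and 113, and 1 TATA-box match at base 49, and the Adh1 stretch held none. Of 32851 promoter windows in the table, 37.4% held the first motif and 13.6% the second. Neither stretch held the letters AGGTCA or GGTTCA, short forms of the sequence that retinoic acid receptors bind, on either strand, nor did the full windows of these genes, against 16.3% and 10.4% of all windows. The windows are 300 bases long and the printed stretches 237 and 159, and the full Adh1 window held none of the 4 motifs. A match or its absence describes these letters only.

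Cells carried between 11711 and 721564 reads, with a median of 61294. Plate C114 stood apart, with a median of 31.8% of reads in ribosomal protein genes against 3.60% to 6.80% on the other 4 plates, and a median of 2.77% mitochondrial reads against 9.69% to 33.8%. Since C114 gave 53 of the 70 RepI cells, results of the 4 genes that rest on RepI are also given with RepI cut to plate C118. Of the 10 markers of fibroblasts, immune cells, melanocytes and endothelial cells in the table, 9 lay between 0 and 13.0 CPM (reads per 1000000 reads of a replicate) in every replicate. The endothelial marker Pecam1 was read in all 310 cells, at 1264 to 8773 CPM, while Kdr, another endothelial marker, stayed at or below 0.41. The endothelial list summed to 1264 CPM in RepI, 8773 CPM in RepL, 7673 CPM in RepM and 2640 CPM in RepN, and its part in the results was not tested.

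Of the 310 cells, reads were found in 186 cells for Aldh3a1 (6137 reads), 133 for Adh7 (4274 reads), 72 for Adh1 (1296 reads) and 59 for Stra6 (548 reads). Divided by exonic length, the summed level averaged 86.5 ± 61.1 CPM per kilobase for Aldh3a1, 33.6 ± 5.26 for Adh7, 16.5 ± 10.5 for Adh1 and 2.37 ± 1.79 for Stra6 (SD, n = 4 replicates). The lowest replicate of Aldh3a1, 49.6, lay above the highest of Adh7, 38.3. On plate C118 the order was the other way, with 18.3 for Aldh3a1 and 36.2 for Adh7. Neighbours further down this order were not separated, since the highest Adh1 replicate, 28.6, passed the lowest Adh7 replicate, 28.5, and the highest Stra6 replicate, 4.48, passed the lowest Adh1 replicate, 4.17. In the transcripts, 1.98% of the 31-base words of Adh1 also occurred in Adh6-ps1 or Gm43158, and none of those of the other 3 genes occurred elsewhere. Adh1 is overlapped by Gm16559, Adh7 by 0610031O16Rik and Stra6 by Ccdc33 and Gm16131. The protocol does not keep strand, so strand cannot tell apart reads from such overlaps. As given above, Adh7 and Stra6 shared no 31-base word with another gene.

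Stra6, the uptake receptor, had the fewest reads of the 4 genes. The 38w replicates RepI and RepL had summed levels of 11.7 and 1.03 CPM, and the 38wUW replicates RepM and RepN had 16.4 and 26.1 CPM. Both 38wUW replicates lay above both 38w replicates, and RepL held only 6 Stra6 reads in 3 cells. The group means were 6.38 ± 7.56 and 21.3 ± 6.83 CPM (SD, n = 2). In the fit over all genes with edgeR, the log2 fold change was -1.46 ± 1.16 (SE), with an adjusted p of 0.743. Without RepI it was -4.11, without RepL -0.52, and with RepI cut to plate C118 -2.34. In sums of this kind, fewer cells of a type and less RNA per cell cannot be told apart.

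Adh1, an alcohol dehydrogenase that acts on ethanol and retinol, stood at 63.8 CPM in RepI and 46.5 CPM in RepL, while RepM had 9.32 CPM and RepN 27.4 CPM. Here both 38w replicates lay above both 38wUW replicates, with means of 55.1 ± 12.2 and 18.4 ± 12.8 CPM (SD, n = 2). The log2 fold change was 1.84 ± 0.92 (SE), with an unadjusted p of 0.0637 and an adjusted p of 0.632 (edgeR). It stayed between 1.29 and 2.80 over 16 alternatives, with 1.31 when RepI was cut to plate C118, and none of them called it. A single cell of plate C114 held 339 of the 620 Adh1 reads in RepI. Without the cell richest in Adh1 in each replicate, RepI kept 29.9 CPM, RepL 33.6, RepM 7.63 and RepN 22.2, and the ratio of the group means was 2.13.

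Adh7, an alcohol dehydrogenase with high activity toward retinol that is known from surface epithelia, showed overlapping groups. RepI had 145.2 CPM, RepL 107.9, RepM 143.5 and RepN 112.1, with group means of 126.6 ± 26.4 and 127.8 ± 22.2 (SD, n = 2). The log2 fold change was 0.24 ± 0.82 (SE), with an adjusted p of 0.949 (edgeR), and over 16 alternatives it ran from -0.26 to 0.52, with 0.20 when RepI was cut to plate C118.

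Aldh3a1 stood at 345 CPM in RepI, and RepL had 102 CPM, RepM 96.3 and RepN 128.8. RepI alone was high, and within RepI the value was 411 CPM on plate C114 against 35.5 on plate C118. The groups overlapped, and the log2 fold change of 1.25 ± 0.90 (SE) had an adjusted p of 0.718 (edgeR). With RepI cut to plate C118 it turned to -0.47 ± 0.73 (adjusted p = 0.997), and without RepL it reached 1.95 ± 0.68 (adjusted p = 0.0457), the only one of 64 alternative fits of these 4 genes to pass the threshold of 0.05.

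All 4 genes were among the 11757 tested, and none was called. Over all genes tested edgeR called 0, or 0%, and 949 genes, or 8.07%, had an unadjusted p under 0.05. Without RepI it called 125 genes and without RepL 1223. DESeq2 called 71 of 12703 genes, or 0.559%, and none of these 4. Of the 4 genes, 1 (Adh1) had non-overlapping CPM with 38w higher and 1 (Stra6) with 38w lower, where 12.6% and 26.2% of all tested genes did so.

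**Figure D1:**
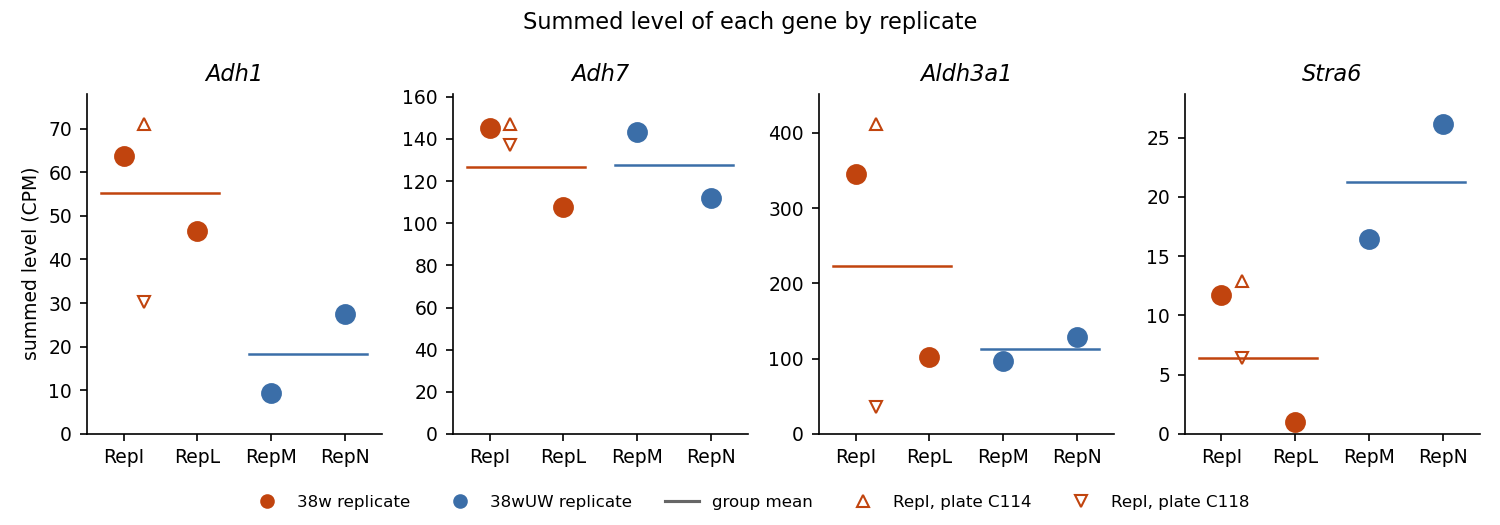
Summed level of each gene, in CPM on a linear axis from 0, in the replicates of 38w (RepI, RepL) and 38wUW (RepM, RepN). Filled points are replicates, lines are group means, and open triangles split RepI by plate; Adh1 is higher and Stra6 lower in both 38w replicates, and the Aldh3a1 value of RepI comes from plate C114 (411 against 35.5 on C118).

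To compare how many cells had reads at equal depth, cells were thinned to a common depth of 20000 reads, reached by 277 of the 310 cells (7 shallower cells were left out in 38w and 26 in 38wUW). Stra6 was then read in 6 of 68 RepI cells (8.82%), 2 of 70 RepL cells (2.86%), 10 of 64 RepM cells (15.6%) and 14 of 75 RepN cells (18.7%). Both 38w replicates were lower, by 11.3 percentage points between the group means. Without thinning the means were 8.43% and 28.5%.

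Adh1 was read in 16 of 68 RepI cells (23.5%), 14 of 70 RepL cells (20%), 7 of 64 RepM cells (10.9%) and 10 of 75 RepN cells (13.3%). Both 38w replicates were higher, by 9.63 points. With RepI cut to plate C118, where 2 of 17 cells (11.8%) had reads, the difference was 3.75 points. RepI then lay below RepN, so the groups overlapped. Without thinning the means were 31.9% and 15.8%.

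Adh7 was read in 22 of 68 RepI cells (32.4%), 17 of 70 RepL cells (24.3%), 30 of 64 RepM cells (46.9%) and 29 of 75 RepN cells (38.7%). Aldh3a1 was read in 35 of 68 (51.5%), 27 of 70 (38.6%), 33 of 64 (51.6%) and 42 of 75 (56.0%). Both genes had lower shares in both 38w replicates, by 14.5 and 8.76 points, although the RepI and RepM shares of Aldh3a1 were nearly equal. With RepI cut to plate C118, its share was 41.2% for Adh7, above RepN, and 29.4% for Aldh3a1. The differences were then -10.0 points for Adh7 and -19.8 for Aldh3a1. The summed CPM of both genes did not order the groups that way, so no direction is read from these shares. Unthinned means were 36.1% and 49.1% for Adh7, and 54.0% and 65.4% for Aldh3a1.

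For each gene an exact permutation test (two-sided) across the 4 replicates gave p = 0.33 (n = 2 and 2), the smallest p that this design allows, and so no difference in share could pass 0.05. Among 12002 genes read in at least 5 thinned cells, 9.85% had shares that were higher in both 38w replicates without overlap and 33.1% had lower ones. Of the 4 genes, 1 was higher and 3 were lower.

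**Figure D2:**
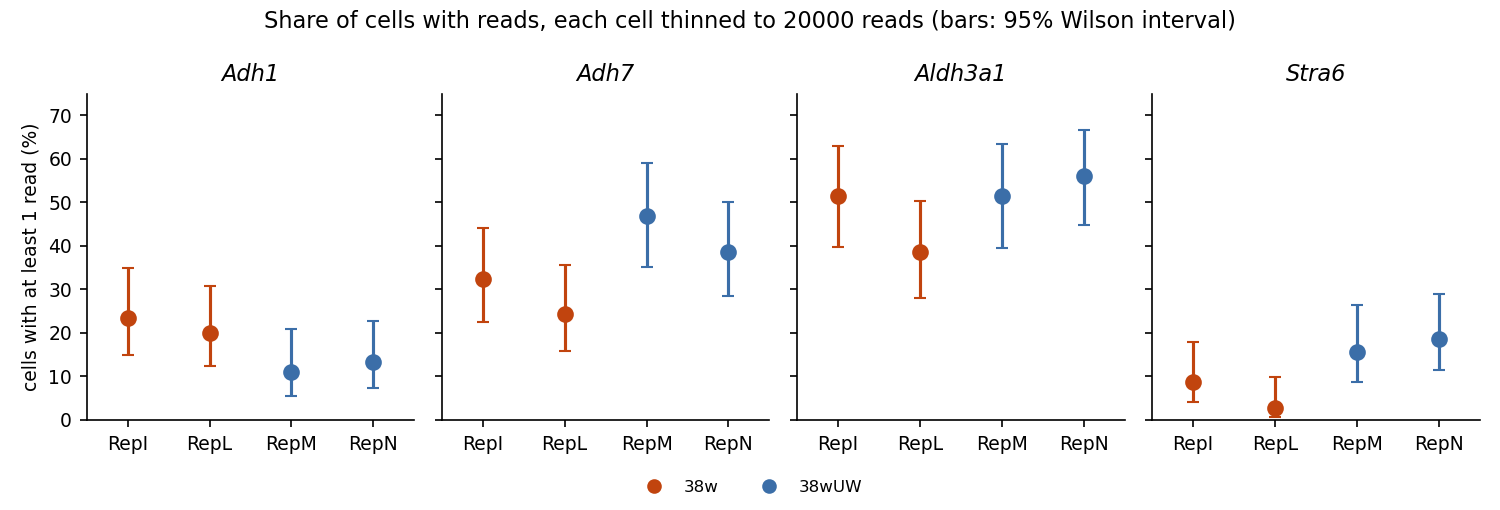
Percent of cells with at least 1 read of each gene in each replicate, after every cell was thinned to 20000 reads. Points are replicates of 38w (red) and 38wUW (blue) and bars are 95% Wilson intervals, which cover counting error only; the Stra6 shares run from 2.86% in RepL to 18.7% in RepN.

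Cells were sorted into 6 classes by the marker list on which they scored highest, and 33 cells whose 2 highest scores lay within 0.1 were left without a class. None of the 4 genes is a marker. A class is a range of a score and not a cell type. Every marker had its highest mean in its own class apart from 1 of 9 interfollicular markers. Cells were sorted on these same markers, so this does not test the classes. Median depth per class lay between 59532 and 66125 reads. The class set against the rest for each gene was taken from the study's marker lists of younger cells, which name these genes, so the differences below are descriptions with no test and no independent support for those lists.

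Adh1 had its highest share of cells in the sebaceous class, the cells scoring highest on genes of lipid synthesis and storage. There, 12 of 16 cells (75.0%, 95% Wilson interval 50.5% to 89.8%) had Adh1 reads, against 12 of 56 (21.4%) in the basal and Transition class (scored on basal keratins, integrins, Tgfbi and Ly6a), 5 of 44 (11.4%) in the junctional zone class and 5.56% to 10.4% in the other 3. By replicate, Adh1 reads were found in 1 of 2 sebaceous cells of RepI, 5 of 7 of RepL, 2 of 3 of RepM and 4 of 4 of RepN. These 12 cells were among 47 thinned cells with Adh1 reads, and the class held 21.3% of all Adh1 reads against 35.8% in the junctional zone class, most of which came from the C114 cell with 339 reads. The share in the sebaceous class exceeded that of all other cells by 58.6 ± 26.3 points (SD, n = 4) and was above it in 4 of 4 replicates. Outside the sebaceous class, Adh1 was read in 22.7% of RepI cells, 14.3% of RepL cells, 8.20% of RepM cells and 8.45% of RepN cells. The order of the groups was thus the same without those cells when both plates of RepI were used. On plate C118, 2 of 17 cells had Adh1 reads, and 1 of them was in the sebaceous class. With RepI cut to that plate, the groups therefore overlapped outside the class as well. The basal and Transition class gave 12 of 45 cells with Adh1 reads in 38w and 0 of 11 in 38wUW, which allows a share of up to 27.3%. Before thinning, Adh1 in this class averaged 1.70 CPM over RepM cells and 7.83 CPM over RepN cells. Without plate C114, 6 of 37 thinned cells of this class had Adh1 reads. This class made up 34.3% of RepI and 33.3% of RepL against 9.76% of RepM and 8.43% of RepN.

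Adh7 had its highest share of cells in the junctional zone class, scored on Lrig1, Lgr6 and other genes of the stem cells above the bulge. It was found in 29 of 44 of these cells (65.9%, interval 51.1% to 78.1%), which gave 29 of the 98 thinned cells with Adh7 reads and 48.8% of all Adh7 reads. The basal and Transition class followed with 22 of 56 (39.3%), then the interfollicular class with 15 of 48 (31.3%), the bulge class with 7 of 29 (24.1%), the sebaceous class with 3 of 16 (18.8%) and the infundibular and duct class with 10 of 54 (18.5%). In RepI 5 of 5 junctional zone cells had reads, in RepL 3 of 5, in RepM 8 of 12 and in RepN 13 of 22, above the rest by 41.2 ± 22.0 points (SD) in 4 of 4 replicates. Adh1 and Adh7, neighbours on chromosome 3, thus had their highest shares in different classes.

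Aldh3a1 was the most widely read. It was found in 34 of 44 junctional zone cells (77.3%, interval 63.0% to 87.2%), 10 of 16 sebaceous cells (62.5%, 38.6% to 81.5%) and 29 of 56 basal and Transition cells (51.8%, 39.0% to 64.3%), and the intervals of these neighbours in the order overlap. The infundibular and duct class gave 44.4%, the interfollicular class 27.1% and the bulge class 20.7% (6 of 29). The bulge class was scored on Lgr5, Cd34, Postn and other genes. The junctional zone exceeded all other cells by 35.5 ± 19.2 points (SD, 4 of 4 replicates).

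Stra6 was read in 10 of 44 junctional zone cells (22.7%, interval 12.8% to 37.0%) and 9 of 54 infundibular and duct cells (16.7%, 9.02% to 28.7%). It was read in 1 of 29 bulge cells, in 2 of 48 interfollicular cells, in 0 of 56 basal and Transition cells, which allows a share of up to 5.36% (before thinning this class held 4 Stra6 reads), and in 0 of 16 sebaceous cells, which allows up to 18.8%. The junctional zone difference of 14.8 ± 17.4 points was smaller than its SD and rested on RepL, where both thinned cells with Stra6 reads were among the 5 cells of this class. Without RepL it was 6.36 points, and with at least 5 reads asked of a cell it was -0.77.

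The junctional zone class made up 7.14% of RepI, 6.67% of RepL, 22.0% of RepM and 28.9% of RepN. With those cells left out, the shares in 38w and 38wUW were 24.3% ± 3.85 and 36.2% ± 8.57 for Adh7, 41.5% ± 8.65 and 47.6% ± 3.34 for Aldh3a1, and 3.97% ± 5.61 and 16.2% ± 1.13 for Stra6 (SD, n = 2). The difference for Stra6 was as large without the class (12.2 points) as with it.

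**Figure D3:**
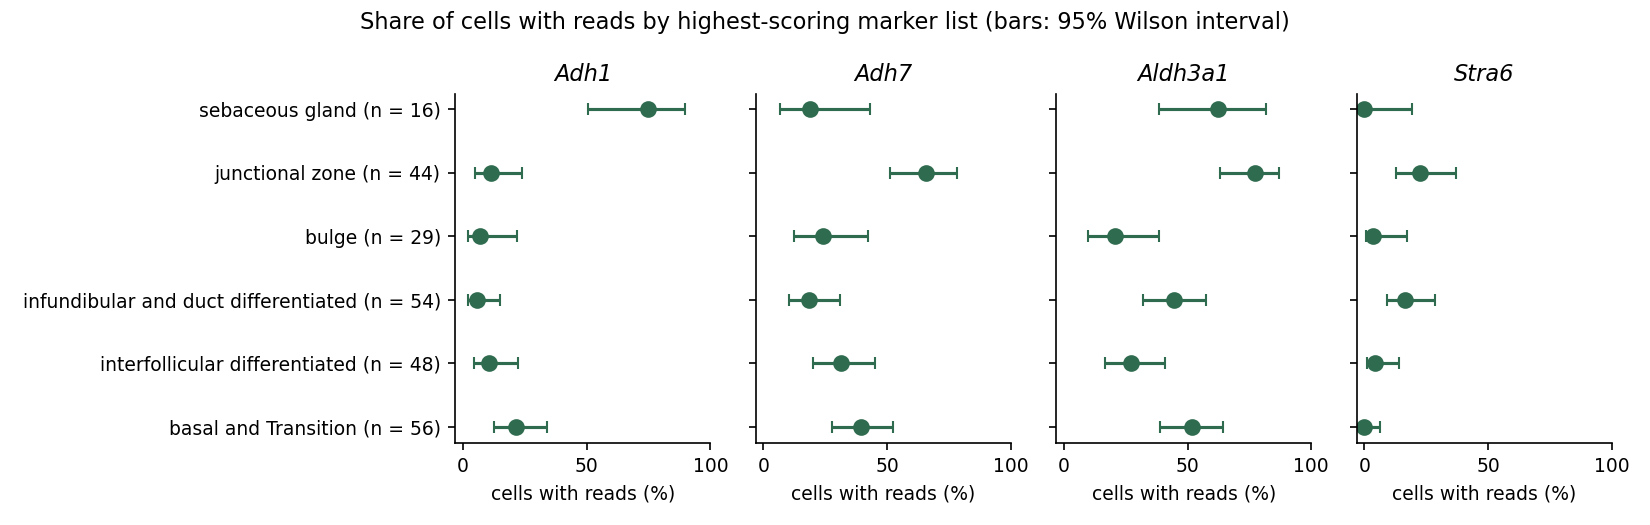
Percent of thinned cells with reads of each gene in the 6 marker classes, with 95% Wilson intervals and the number of cells beside each class name. Adh1 is highest in the sebaceous gland class (75.0%), Adh7 and Aldh3a1 in the junctional zone class (65.9% and 77.3%), and Stra6 has 0 of 56 basal and Transition cells.

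Among the 277 thinned cells, 99 (35.7%) had no read of any of the 4 genes, 74 had reads of 1 gene, 74 of 2, 28 of 3 and 2 of all 4. The commonest combination was Adh7 with Aldh3a1 alone, in 49 cells, followed by Aldh3a1 alone in 36. Aldh3a1 was read in 75 of 98 cells with Adh7 reads (76.5%) and in 62 of 179 without (34.6%), and the former share was higher in every replicate, at 77.3% against 39.1% for RepI, 64.7% against 30.2% for RepL, 73.3% against 32.4% for RepM and 86.2% against 37.0% for RepN. Of the 32 cells with Stra6 reads, 27 (84.4%) also had Aldh3a1 reads and 18 (56.3%) had Adh7 reads. Adh1 and Adh7 shared 12 cells, which were 25.5% of the Adh1 cells, while 37.4% of cells without Adh1 reads had Adh7 reads. In 17 cells Adh1 went with Aldh3a1 alone, 14 of them in 38w.

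A few cells held much of the reads. Among cells with reads, levels per 1000000 reads of the cell ran from 2.65 to 1029 CPM for Adh1, 3.01 to 1875 for Adh7, 2.78 to 2596 for Aldh3a1 and 1.95 to 543 for Stra6, with medians of 73.2, 169, 136 and 45.1. The richest cells that together held 50% of all reads numbered 6 for Adh1, 10 for Adh7, 12 for Aldh3a1 and 7 for Stra6. In RepI the cell with most Adh1 reads (339), most Adh7 reads (307) and most Aldh3a1 reads (855) was the same cell, of the junctional zone class, with 329356 reads in all. In RepL 1 junctional zone cell of 551629 reads held 377 of the 626 Adh7 reads.

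**Figure D4:**
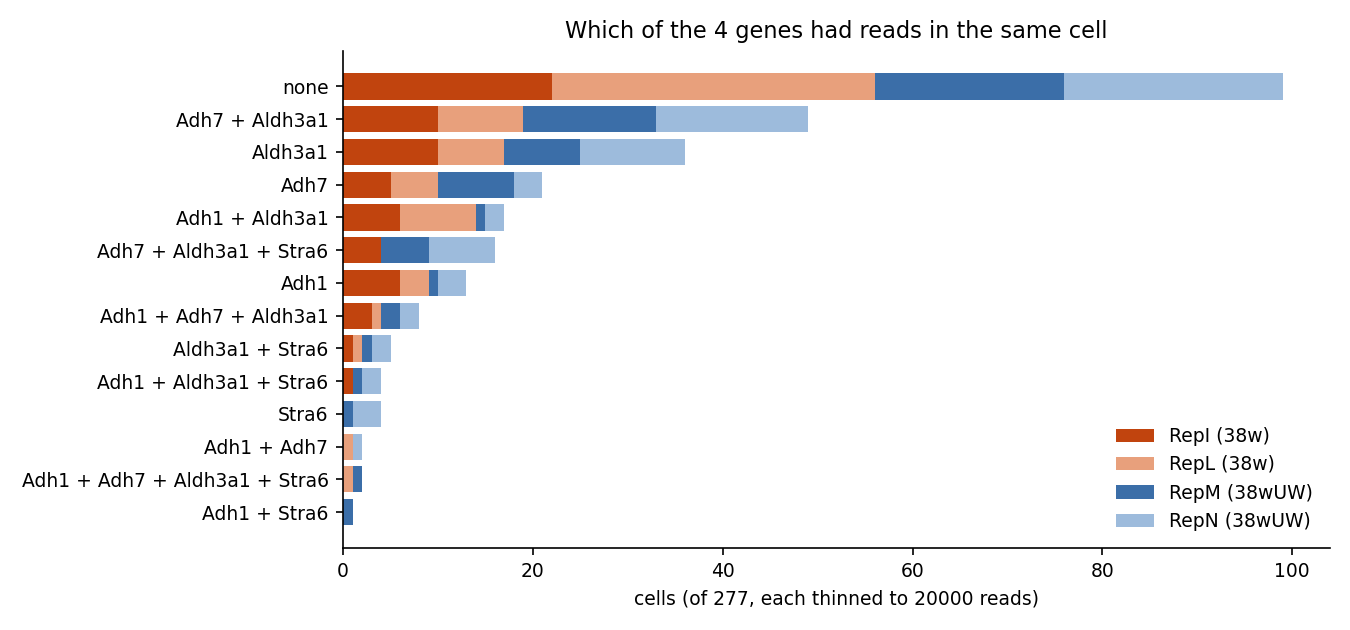
Number of thinned cells, of 277, with each combination of reads, stacked by replicate. None is the longest bar with 99 cells, and Adh7 with Aldh3a1 follows with 49. The bar of Adh1 with Aldh3a1 holds 6 RepI, 8 RepL, 1 RepM and 2 RepN cells.

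The genes whose pattern over the 310 cells was most like each of the 4 were found by Pearson's r of log counts per 10000, centred within plates, among 9246 genes read in at least 10% of cells. These values describe cells that share plates, depth and a sort, and carry no p. Closest to Adh1 were Emb (r = 0.53), the lipid droplet gene Plin2 (0.53), Mgst1 (0.49), Tgfbr3 (0.48) and Acadl (0.46), of which Plin2 and Mgst1 are markers of the sebaceous class. Closest to Adh7 were Sostdc1 (0.50), an inhibitor of BMP and Wnt signalling, Aldh3a1 (0.43), Ntrk2 (0.41), Ifitm3 (0.39) and Ccnd2 (0.37). Aldh3a1 was most like Lmo1 (0.56), Apoe (0.49), Adh7 (0.43), Tspo (0.42) and Clca3a2 (0.40). Stra6 was most like Myo9b (0.45), Clca3a2 (0.43), the glutathione transferases Gstm1 (0.37) and Gstm5 (0.35), and Aldh3a1 (0.34). Within single plates all r of the genes listed for Adh1 and Adh7 were above 0, while that of Lmo1 was -0.05 on plate C118, that of Myo9b was -0.08 on plate C119, and Clca3a2 had none on C118. Adh1 and Adh7 themselves had r = 0.03, and Adh1 and Stra6 0.01.

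The wider list of retinoid and aldehyde genes held 67 names, of which 54 were in the table and 49 were tested. edgeR called 0 of them. At an unadjusted p under 0.05, 2 were higher in 38w (Dhrs4 and Aldh16a1) and 2 lower (Rdh1 and Aldh1a7), names given after their values were seen, where 4.3% and 3.77% of all tested genes were. Dhrs4 was at 69.8 CPM on plate C114 and at 5.81 on C118, and its groups overlapped. The median log2 fold change of the 49 was 0.73, against 0.12 over all genes tested. It was not computed with RepI cut to plate C118, so no shift of the list is read from it. The 14 tested genes listed as turning retinol into retinal had a median of -0.11. By replicate 6 of the 49 were higher and 10 lower in 38w without overlap, where 12.6% and 26.2% of all tested genes were. With RepI cut to plate C118, 5 were higher and 16 lower, where 8.31% and 26.9% of all tested genes were. DESeq2 called 1 of the list, the retinol dehydrogenase Rdh1, which had 0.79 and 1.03 CPM in the 38w replicates and 29.0 and 32.7 CPM in the 38wUW replicates (log2 fold change -4.74, adjusted p = 0.00127). In edgeR its log2 fold change was -4.80 ± 1.16 (SE), with an adjusted p of 0.590. Rdh1 has closely similar paralogs and its estimated counts were in part not whole, so its level is uncertain.

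Of the genes that bind retinoids or lipids in the cell, Crabp2, which carries retinoic acid, was at 180, 27.9, 88.3 and 50.8 CPM over RepI, RepL, RepM and RepN, and Fabp5, a fatty acid carrier, at 910, 277, 323 and 281. Both overlapped between groups and were highest in RepI, where plate C114 gave 213 CPM of Crabp2 and 1015 of Fabp5 and plate C118 gave 25.0 and 421. Crabp2 was read in 49 of 54 infundibular and duct cells (90.7%) and Fabp5 in 44 of 54 (81.5%), a class in which Adh7 was read in 18.5%. Fabp5 was also read in 37 of 48 interfollicular cells (77.1%). Its summed level was higher in the interfollicular (1284 CPM) and sebaceous (3616 CPM) classes than in the infundibular and duct class (575 CPM). Lipe, a lipase that can release retinol from its esters, ranged from 207 CPM in RepI to 1615 in RepL and was read in 308 of 310 cells.

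Among the other dehydrogenases listed as turning retinol into retinal, Sdr16c6 had 36.5 and 113 CPM in the 38w replicates. In the 38wUW replicates it had 271 and 362 CPM, without overlap (log2 fold change -1.84 ± 0.91, adjusted p = 0.629, edgeR). Sdr16c6 was read in 90.7% of infundibular and duct cells and in 0 of 56 basal and Transition cells, which allows up to 5.36%. The infundibular and duct class held 78.1% of its reads. That class made up 15.7% of RepI and 8% of RepL against 25.6% of RepM and 21.7% of RepN, and its part in the difference was not tested. Rdh10, at 14.7 and 5.86 against 26.5 and 40.3 CPM, and Rdh14, at 13.6 and 28.1 against 32.9 and 34.8, were also lower in both 38w replicates, and neither was called. Sdr16c5 (88.2 to 151 CPM), Rdh12 (17.7 to 46.8) and Adh5, the formaldehyde-clearing alcohol dehydrogenase (48.2 to 185), overlapped. Adh5 was read in 15 of 16 sebaceous cells (93.8%) and in 35 of 56 basal and Transition cells (62.5%), the classes in which Adh1 shares were also highest. Dhrs3, which returns retinal to retinol, was at 45.4 and 23.6 CPM in 38w against 17.4 and 18.6 in 38wUW, and within RepI it was at 54.5 on plate C114 and at 3.49 on C118, below both 38wUW replicates.

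Genes of the ALDH1A family were named after their values were seen. Aldh1a1 lay between 0 and 3.37 CPM and Aldh1a3 between 0.89 and 8.1, and Aldh1a7 had 0 CPM in RepI, 3.62 CPM in RepL, 13.1 CPM in RepM and 43.3 CPM in RepN. Of the nuclear receptors, Rxra stood at 37.0, 15.3, 32.7 and 23.5 CPM over RepI, RepL, RepM and RepN. Among the other aldehyde dehydrogenases, Aldh3b2 was at 57.9, 8.79, 16.6 and 6.94 CPM in the same order (67.7 on plate C114 and 12.2 on C118) and Aldh6a1 at 19.2, 31, 28.7 and 104, and neither was called.

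**Figure D5:**
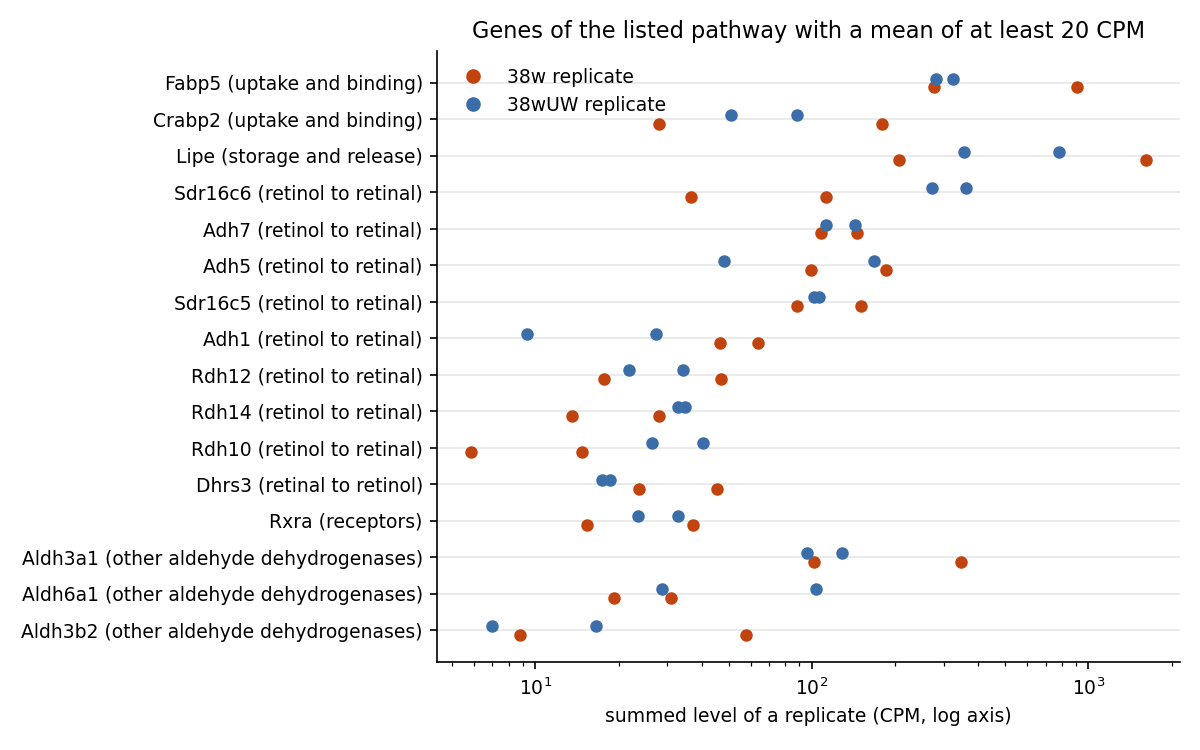
Summed levels, in CPM on a log axis, of 16 genes of the list that averaged at least 20 CPM over the 4 replicates, with 38w replicates in red and 38wUW replicates in blue. Adh1 and Dhrs3 lie higher, and Sdr16c6, Rdh10 and Rdh14 lower, in both 38w replicates, though Dhrs3 in RepI is at 54.5 on plate C114 and at 3.49 on C118, and none of the 16 was called.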

How the data were processed

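The deposited values are estimated counts per gene and cell. Per the labels and the study's methods, the authors quantified single-end reads with Salmon 0.13.1 against Ensembl 101 (GRCm38) and left out cells with fewer than 1000 genes or over 50% mitochondrial reads and genes in fewer than 5 cells. Seurat and R 4.0.3 are also named. Of the values, 3.60% were not whole, and all were rounded before tests. Counts were summed per replicate, since cells are not replicates, and tested with edgeR 4.0.16 (quasi-likelihood, TMM, filterByExpr, Benjamini-Hochberg, threshold 0.05) in R 4.3.3, with DESeq2 1.42.0 as an alternative. Shares used cells thinned to 20000 reads and an exact permutation test over replicates (scipy 1.17.1). Intervals, and limits at 0 (3 cells of the total), cover counting error only, and reads without molecular identifiers are not independent molecules. Doublets were not called. Classes followed the highest mean z-score over 6 marker lists, with a margin of 0.1. Named genes are the 4 members, listed pathway genes at 20 CPM or more on average, and the 5 most similar genes of each. The members and lists were chosen with earlier results of these data known. Replicate letters are not shared between the groups. A gene of the pathway list is not reported here.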

Additional observations from a re-analysis of the deposited data

How the results depend on the processing

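The number of genes called, 0 in the edgeR fit, was 71 with DESeq2, 1 without the filter on low counts, 1 and 4 with the 5 plates as units and the batch tag or the alternative batch tag as a block (these tags disagree for plates C128 and C129), and 0 to 1223 when each replicate was left out, with 125 without RepI and 1223 without RepL. The log2 fold change of Adh7 turned to -0.26 when cells were thinned before summing, and leaving out each replicate gave -0.0125 (without RepI) to 0.52. That of Aldh3a1 turned to -0.47 with RepI cut to plate C118, and leaving out each replicate gave 0.0893 (without RepI) to 1.95 (without RepL). Adh1 (1.29 to 2.80) and Stra6 (-4.11 to -0.52) kept their direction in all 16 alternatives and were not called. Leaving out the 15 cells with an unexplained name suffix (13 IDTILL, 2 MBULK), the 2 alone or the sebaceous class changed no call or direction of the 4 genes. Leaving out a class, from sums or shares, and counting the listed genes with RepI cut to plate C118 were chosen after seeing the data. The differences in share kept their direction in all 12 alternatives, at 3.75 to 16.2 points for Adh1, -18.6 to -10.0 for Adh7, -19.8 to -1.61 for Aldh3a1 and -20.0 to -3.56 for Stra6. With at least 5 reads asked of a cell, the class difference fell to 25.7 points for Adh1 and turned to -0.77 for Stra6. The cause of these changes was not tested. In fits without 1 replicate, the lone replicate of its group is assumed to vary like those of the other group. Few reads limit the precision of Stra6.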
